A study of Mus musculus with 36 samples.

Results

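The nuclear-encoded subunits of the mitochondrial respiratory chain were examined as a group of 83 genes in the left ventricle and atria of CUG960 mice, a model of the heart in myotonic dystrophy type 1. The genes were taken by symbol: names beginning Nduf with a, b, c, s or v and a digit for complex I, Sdha to Sdhd for complex II, Uqcr for complex III, Cox4 to Cox8 for complex IV, and Atp5 for complex V. Of 55291 symbols in the count table, 101 matched. After 13 symbols marked as pseudogenes were set aside and a mean TPM (an RNA level per unit of transcript length, with the same total in each library) of at least 1 over the 36 libraries was required, 83 remained, with 38 genes of complex I, 4 of complex II, 8 of complex III, 16 of complex IV and 17 of complex V. Of these, Ndufb4c (546 TPM, counted in complex I) is a processed pseudogene in the GENCODE M21 annotation although its symbol does not say so. Closest above the limit were Cox6b2 (mean TPM 3.97), Cox4i2 (8.86) and Ndufa4l2 (15.7), and closest below it were Cox7b2 (0.406) and Ndufs6b (0.135). The rule used only symbols and TPM, but it was set with earlier results of these data known.

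Complexes I to IV carry electrons from NADH and succinate to oxygen in the inner mitochondrial membrane. Complexes I, III and IV also pump protons, and complex V, the ATP synthase, uses the proton gradient to make ATP. Most of their subunits are encoded in the nucleus, whereas a small core set is encoded by mitochondrial DNA, so that both genomes have to be expressed together. Heart muscle makes nearly all of its ATP in this way, and several complex IV subunits have a separate heart and skeletal muscle isoform.

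All mice were homozygous for the TREDT960I transgene, which carries a long interrupted run of CTG repeats within human DMPK sequence, and hemizygous for a transgene in which the cardiomyocyte promoter of α-MHC drives the doxycycline (dox)-dependent transactivator. The +dox mice received dox from postnatal day 1 to 21 weeks of age and expressed the repeat RNA, the –dox mice never received dox, and the +/–dox mice were taken off dox at 9 weeks. The MBNL1, MBNL2 and MBNL1+MBNL2 mice stayed on dox and received AAV9 by tail vein at 9 weeks, with tagged human MBNL cDNAs behind the cardiac TNNT2 promoter. Each of the 6 cohorts had 3 biological replicates per tissue, and every animal was 21 weeks old at collection. Groups that differed in repeat RNA also differed in dox feeding, and no library from mice given an AAV without MBNL was analysed here, so that the effects of dox and of the vector itself cannot be told apart from those of the repeat RNA and of MBNL.

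The libraries held between 55.03 and 97.09 M expected counts. Atrial and ventricular markers matched the labelled tissues, with summed TPM for the atrial set of 92.2 to 1007 in the ventricle and 40261 to 61759 in the atria. The library of MBNL1 ventricle replicate 1 stood apart, with 16885 symbols above 0 against at least 20578 in each of the others. All 83 genes passed the filter on low counts and were tested within a single model of 19231 genes by edgeR's quasi-likelihood test. A gene was called when its Benjamini-Hochberg adjusted p was below 0.05 and its fold change was at least 1.5, and counts without the fold limit are given separately as genes that passed the test. Ndufs5, Ndufa12 and Ndufb4 have near-identical copies with reads of their own (Ndufs5-ps held 337 TPM, Ndufa12-ps 118 and Ndufb4c the value above). In the annotation 18 of the 83 genes overlap another gene with a mean of at least 100 expected counts, among them Ndufs6, Ndufa4l2, Ndufs1, Cox4i1, Cox6c, Atp5a1, Atp5d, Atp5j and Atp5o. The levels of all these genes are uncertain to that extent.

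The highest levels per length belonged to the ATP synthase and to complex IV. Atp5b, the catalytic β subunit, had a mean of 2952 TPM in the ventricle and 3433 in the atria. Cox7a1, the muscle isoform of subunit VIIa, had 2641 and 2259 TPM, and Cox4i1, the common isoform of subunit IV, had 2574 and 2091. The other genes among the highest were Atp5a1, the α subunit (2346 and 2070 TPM), and Cox6a2, the muscle isoform of subunit VIa (2195 and 1916 TPM). Over all libraries, complex II genes were the most alike, between 284 and 581 TPM, whereas complex IV ranged from 3.97 TPM for Cox6b2 to 2450 TPM.

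**Figure D1:**
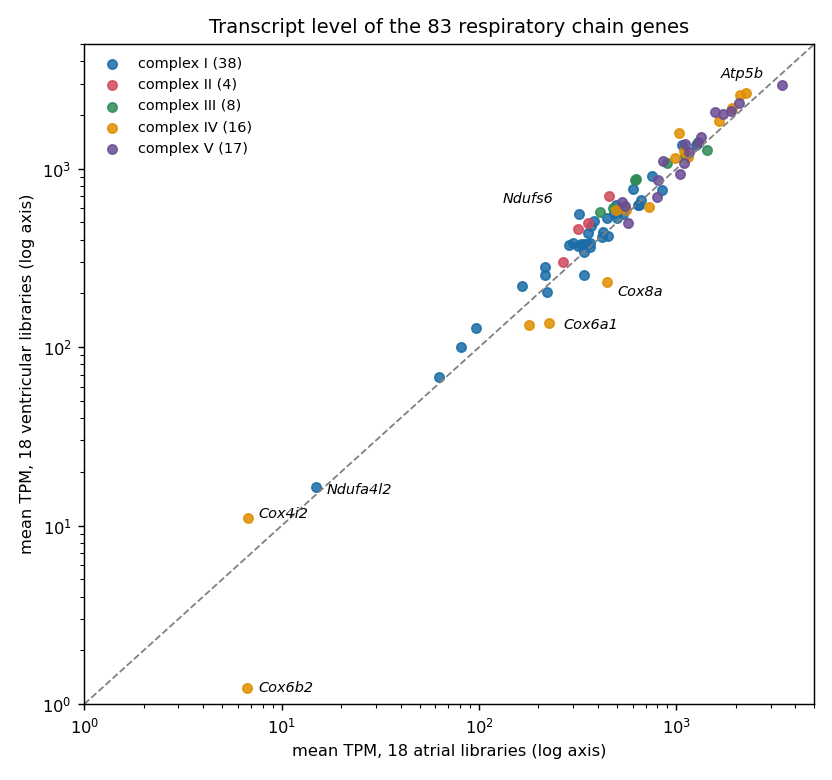
Mean TPM of each of the 83 genes in the atria (horizontal, log axis) and the ventricle (vertical, log axis), over 18 libraries of each tissue, coloured by complex, with a dashed line where both are equal. Most genes lay above 100 TPM in both tissues, and Cox6b2, Cox4i2 and Ndufa4l2 were the lowest.

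As a share of all TPM outside the mitochondrial genome, the 83 genes made up 10.1% of ventricular RNA in +dox mice (range 9.76 to 10.3%, n = 3). In –dox mice the share was 9.82% (9.42 to 10.1%) and in +/–dox mice 9.99% (9.94 to 10.03%). The ventricles of the vector-treated cohorts had lower mean shares, with 9.17% (8.98 to 9.43%) for MBNL1, 9.29% (9.12 to 9.41%) for MBNL2 and 9.33% (9.24 to 9.41%) for MBNL1+MBNL2, and none of these 9 libraries reached the lowest +dox library. Atrial means lay between 7.55 and 7.90% in all 6 cohorts. In the +dox ventricle, complex V contributed 3.50% (3.46 to 3.54%), complex I 2.63%, complex IV 2.48%, complex III 1.19% and complex II 0.257%.

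The share of complex V fell outside the +dox range in all vector-treated ventricles, at 3.16% (3.10 to 3.24%) for MBNL1, 3.20% (3.13 to 3.27%) for MBNL2 and 3.21% (3.17 to 3.27%) for MBNL1+MBNL2. By mean TPM, complex V genes moved both ways in –dox ventricles, with Atp5h at 2039 against 2380 in +dox mice and Atp5b at 3005 against 2741. The share of complex II was higher in mice without current dox. Its ventricular share was 0.248 to 0.268% in +dox mice, 0.279 to 0.298% in –dox mice and 0.298 to 0.305% in +/–dox mice. In the atria it was 0.161 to 0.172% in +dox mice, 0.183 to 0.197% in –dox mice and 0.182 to 0.184% in +/–dox mice. Neither range overlapped that of +dox mice in either tissue. In the vector-treated ventricles each complex II gene had a mean above its +dox mean by TPM, but not by counts. Sdha held 491 (MBNL1), 476 (MBNL2) and 467 (MBNL1+MBNL2) against 454 in +dox ventricles. Its MBNL2 and MBNL1+MBNL2 libraries overlapped those of +dox mice. In tissue RNA, fewer cells of a type and less RNA per cell cannot be told apart, which applies to all levels given here.

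The muscle isoforms of complex IV outweighed their common counterparts more in the ventricle than in the atria. The TPM ratio of Cox6a2 to Cox6a1 was 19.4 (17.7 to 22.4) in the +dox ventricle and 8.48 (7.54 to 9.12) in the +dox atria. For Cox8b, the muscle isoform of subunit VIII, over Cox8a the ratio was 8.18 (7.38 to 8.85) and 2.24 (1.92 to 2.64), and for Cox7a1 over Cox7a2 it was 4.10 (3.99 to 4.27) and 3.28 (3.20 to 3.45). None of these ranges overlapped between tissues. Across ventricular cohorts the ratio of Cox8b to Cox8a was lower in MBNL2 (5.27 to 6.37), MBNL1+MBNL2 (5.36 to 6.44) and +/–dox mice (5.84 to 7.31) than in any +dox library, whereas in MBNL1 (5.70 to 8.29) and –dox mice (6.82 to 8.76) it overlapped. The ratio of Cox7a1 to Cox7a2 was above the +dox range in –dox ventricles, at 4.86 (4.41 to 5.12). These ratios are descriptions and were not tested. Cox4i2 and Ndufa4l2, paralogs of Cox4i1 and Ndufa4 known to respond to low oxygen, stayed far below their partners (Ndufa4 is grouped with complex I by its symbol, although its protein is part of complex IV), with ratios of 253 for Cox4i1 to Cox4i2 and 111 for Ndufa4 to Ndufa4l2 in the +dox ventricle. Of the 3 genes for subunit c of the ATP synthase, which encode the same mature protein, Atp5g1 and Atp5g3 made up 44.7 and 44.2% and Atp5g2 11.1% in the +dox ventricle, against 44.0, 40.9 and 15.1% in the +dox atria.

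Relative to all genes, respiratory chain RNA was higher in the ventricle than in the atria. By counts with TMM scaling (factors that align the bulk of genes between libraries) 80 of the 83 genes lay above 0 in each cohort, whereas on the deposited TPM scale 66 did in –dox and 64 in +dox mice. In –dox mice, 63 of the 83 genes were called higher in the ventricle and 1 lower, while 11.2% of all genes tested were called higher and 24.9% were called in either direction. In +dox mice, 62 were called, all higher, against 11.8% of all genes higher and 25% in either direction. Passing the test without the fold limit were 80 genes higher and 2 lower in –dox mice, against 20.3% and 22.3% of all genes, and 77 higher and 2 lower in +dox mice, against 21.6% and 22%. The median log2 difference of ventricle over atria was 0.72 in –dox mice and 0.74 in +dox mice, beside −0.03 and −0.00 over all genes. Both tissues came from the same animals, and a fit with the replicate number as a block gave 64 and 62 called genes.

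The medians of all 5 complexes were above 0 by counts. In –dox mice the medians were 0.75 for complex I, 0.96 for complex II, 0.78 for complex III, 0.70 for complex IV and 0.67 for complex V, and in +dox mice they were 0.70, 1.00, 0.86, 0.69 and 0.78. Genes called higher in –dox mice numbered 30 of 38 in complex I, 4 of 4 in complex II, 7 of 8 in complex III, 10 of 16 in complex IV and 12 of 17 in complex V. The size and, for some genes, the direction depended on the scaling. Under scaling by library size alone the median over all genes moved to −0.35 in –dox and −0.27 in +dox mice, and on the TPM scale to −0.32 and −0.30, while the median of the respiratory chain genes less that of all genes was 0.75 in both cohorts by library size and 0.48 and 0.51 by TPM. On the log2(TPM + 1) scale limma called 3 genes higher and 3 lower in –dox mice and 4 higher and 3 lower in +dox mice, against 29.9 and 29.7% of all genes in either direction. By group means on that scale 17 genes in –dox and 19 in +dox mice were lower in the ventricle, among them Atp5b, Atp5d, Atp5o, Ndufa11, Ndufa13 and Uqcrh in both cohorts.

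**Figure D2:**
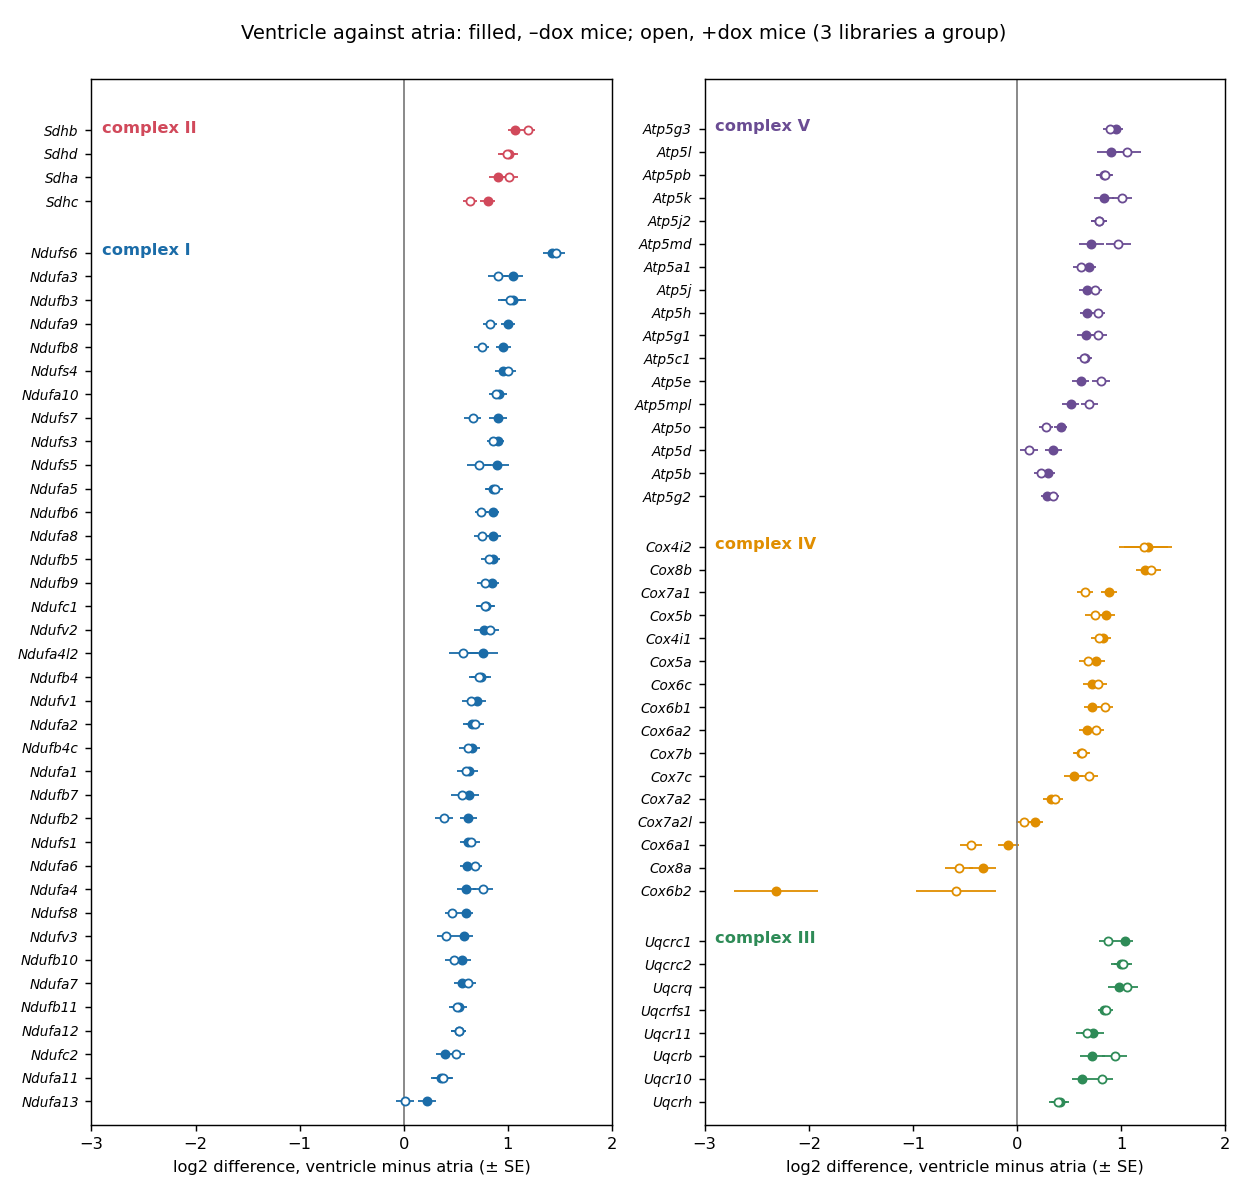
Log2 difference of ventricle over atria for the genes named on the axis, with its standard error, from the model over all genes, ordered within complexes. Filled symbols are –dox and open symbols +dox mice, 3 libraries per tissue and cohort. Most genes lay between 0.5 and 1.3 in both cohorts, and Cox6b2 in –dox mice lay at −2.32.

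Ndufs6, a zinc-binding accessory subunit of complex I, had the largest difference among abundant genes. In +dox mice its 3 ventricular libraries held 197, 204 and 186 CPM (counts scaled to library size, not to length) and the atrial libraries 80.2, 68.4 and 63.9, and in –dox mice they held 156, 188 and 186 against 68.2, 65.0 and 64.2. Every ventricular library was above every atrial library, and the log2 difference was 1.47 ± 0.08 (SE, adjusted p = 3.3e-15) in +dox and 1.43 ± 0.08 (adjusted p = 7.3e-15) in –dox mice by edgeR.

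All 4 genes of complex II were higher in the ventricle by counts. Sdhb, its iron-sulfur subunit, had 526, 541 and 576 CPM in the +dox ventricle and 258, 243 and 217 in the +dox atria. The libraries did not overlap, with a log2 difference of 1.19 ± 0.07 (edgeR, adjusted p = 1.3e-15), and in –dox mice it was 1.06 ± 0.07. Sdha, the flavoprotein, differed by 1.02 ± 0.08 in +dox and 0.90 ± 0.08 in –dox mice, Sdhd, a membrane anchor, by 0.99 ± 0.09 and 1.01 ± 0.09, and Sdhc, the other anchor, by 0.64 ± 0.07 and 0.81 ± 0.07. On the TPM scale Sdhc was not higher in the ventricle of +dox mice, with a mean of 247 TPM (218 to 292) in the ventricle and 251 (238 to 263) in the atria. Uqcrc1, a core protein of complex III, had 968, 1057 and 919 CPM in the +dox ventricle against 580, 546 and 485 in the atria, a log2 difference of 0.87 ± 0.08 that was 1.03 ± 0.08 in –dox mice. Atp5g3 differed by 0.95 in –dox and 0.89 in +dox mice.

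In complex IV the isoforms separated. Cox8b had 198, 194 and 229 CPM in the +dox ventricle and 97.4, 78.0 and 78.7 in the +dox atria (log2 difference 1.29 ± 0.09, edgeR adjusted p = 9e-13), whereas Cox8a had 55.8, 66.8 and 61.3 in the ventricle and 89.7, 87.0 and 93.3 in the atria (−0.55 ± 0.13, adjusted p = 0.001). The muscle isoform was thus higher and the common isoform lower in every ventricular library of +dox mice. In –dox mice Cox8a overlapped between tissues, with 54.0 to 78.5 CPM in the ventricle and 66.3 to 95.7 in the atria. Cox6a2 differed by 0.76 ± 0.08 and Cox6a1, the common isoform of VIa, by −0.44 ± 0.11 (edgeR, adjusted p = 0.00085) in +dox mice, but in –dox mice Cox6a1 differed by −0.08 ± 0.11 (adjusted p = 0.58). Cox7a1 differed by 0.65 ± 0.08 and Cox7a2 by 0.36 in +dox mice, while Cox7a2l, a supercomplex assembly factor related to Cox7a2, was at 0.06 (edgeR, adjusted p = 0.51). Atp5b passed the test at 0.30 ± 0.07 in –dox and 0.23 ± 0.07 in +dox mice, but its sign turned under 2 other scalings (−0.0191 and −0.25 in –dox mice), as did those of Atp5g2 and Cox7a2l, and that of Cox7a2 on the TPM scale.

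Cox6b2, a subunit VIb isoform best known from testis, was the single gene called lower in the ventricle of –dox mice. Its ventricular –dox libraries held 0.289, 0.371 and 0.454 CPM and the atrial ones 2.43, 1.86 and 1.26, without overlap (log2 difference −2.32 ± 0.41, edgeR adjusted p = 2e-05). These levels rest on 17 to 25 expected counts in the ventricle and 98 to 193 in the atria. In +dox mice the difference was −0.58 ± 0.38 (edgeR, adjusted p = 0.23).

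Markers of other cell types differed between tissues as well. In –dox mice 5 of 6 fibroblast markers and 5 of 5 macrophage markers passed the test as lower in the ventricle, and in +dox mice 2 and 3 did. The summed fibroblast markers were 681 to 746 TPM in the +dox ventricle and 1122 to 1408 in the +dox atria, and macrophage markers 112 to 181 and 271 to 394. The summed markers common to both kinds of cardiomyocyte spanned 26084 to 27904 TPM in the ventricle and 26688 to 27611 in the atria of +dox mice. Single markers of that sum went both ways. Over all cohorts, Pln (3168 to 4056 TPM against 708 to 1582) and Actc1 (6871 to 9163 against 4043 to 6809) were higher in the ventricle. Myh6 was mostly lower there (4570 to 7544 against 7429 to 11274), and the remaining markers overlapped more widely. The part of cell composition in the difference of the respiratory chain genes was not tested.

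Other genes of the pathway were counted in the same way, beside 11.2% of all genes called higher in –dox and 11.8% in +dox mice. All 13 genes of mitochondrial DNA that encode subunits were called higher in both cohorts, with median log2 differences of 1.00 in –dox and 0.86 in +dox mice. Among 15 complex I assembly factors 8 were called higher in –dox and 6 in +dox mice and none lower, and among 32 assembly factors for complexes II to V 15 and 15. Of 8 further respiratory chain genes that the symbol pattern does not reach, 7 and 6 were called, among them Etfa, a subunit of the electron transfer flavoprotein of fatty acid oxidation (1.14 in –dox mice). Of 13 tricarboxylic acid cycle genes 9 and 8 were called higher, and of 16 transcriptional regulators of mitochondrial genes 4 were higher and 1 lower in –dox mice and 3 higher in +dox mice. Perm1, a muscle regulator of oxidative metabolism, differed by 1.39 in –dox and 1.41 in +dox mice. On the log2(TPM + 1) scale limma called 4 of the mitochondrial DNA genes in –dox mice and 1 in +dox mice.

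The promoters of the genes were also read. RefSeq starts on build GRCm38.p6 matched 67 of the 83 genes by symbol, and a window of 250 bases before to 50 bases after the start was searched on both strands for fixed letters. The NRF1 motif (GCGC, any base, TGCGC), bound by a main activator of respiratory chain genes, was in 16 of 67 promoters (23.9%) against 4.78% of all 27025 promoters. The GABP (NRF2) motif CCGGAAG was also in 16 (23.9%, against 9.12%), the ERR motif AAGGTCA in 8 (11.9%, against 4.66%), the YY1 motif AAGATGGC in 9 (13.4%, against 2.88%), and the muscle MEF2 motif (CTATTT, any base, TAG) in 0 of 67 (0.403% of all). The motifs were counted separately, and a promoter may hold several. These are matches of letters and do not show that a factor binds.

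Below are 200 bases before to 30 bases after the start for the gene with the largest chamber difference among abundant genes, for 2 others that differed by about 1 on the log2 scale, and for 2 complex IV isoforms that lay at opposite ends. Capitals mark an NRF1 match in Ndufs6 (chr13:73328453-73328682, minus strand) and Uqcrc1 (chr9:108936448-108936677, plus strand) and a GABP match in Sdhb (chr4:140961071-140961300, plus strand). Cox8b (chr7:140900417-140900646, minus strand) and Cox6b2 (chr7:4753065-4753294, minus strand) held none of the 5 motifs in this stretch.
Ndufs6: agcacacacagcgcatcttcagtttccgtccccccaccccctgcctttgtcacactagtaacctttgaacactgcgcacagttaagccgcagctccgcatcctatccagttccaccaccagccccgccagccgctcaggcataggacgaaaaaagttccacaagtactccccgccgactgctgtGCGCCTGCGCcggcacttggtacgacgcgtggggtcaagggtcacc
Sdhb: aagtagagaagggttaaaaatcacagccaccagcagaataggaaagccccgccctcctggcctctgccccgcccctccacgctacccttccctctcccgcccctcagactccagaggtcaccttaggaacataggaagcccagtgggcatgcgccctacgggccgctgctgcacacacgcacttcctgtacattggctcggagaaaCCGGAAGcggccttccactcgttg
Uqcrc1: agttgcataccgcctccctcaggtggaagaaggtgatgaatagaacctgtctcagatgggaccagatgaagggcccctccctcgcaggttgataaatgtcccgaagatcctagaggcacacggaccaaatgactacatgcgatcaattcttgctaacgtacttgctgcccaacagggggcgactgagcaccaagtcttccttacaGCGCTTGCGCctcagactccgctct
Cox8b: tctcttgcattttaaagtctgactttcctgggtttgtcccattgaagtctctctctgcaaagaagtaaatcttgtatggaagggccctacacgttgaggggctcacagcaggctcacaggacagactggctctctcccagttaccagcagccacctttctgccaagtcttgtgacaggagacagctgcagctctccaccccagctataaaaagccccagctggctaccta
Cox6b2: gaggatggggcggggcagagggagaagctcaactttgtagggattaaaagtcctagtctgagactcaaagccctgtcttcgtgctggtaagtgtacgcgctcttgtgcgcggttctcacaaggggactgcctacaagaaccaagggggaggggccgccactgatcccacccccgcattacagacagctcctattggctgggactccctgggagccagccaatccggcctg
The respective chamber differences in +dox mice were 1.47, 1.19, 0.87, 1.29 and −0.58 on the log2 scale, the last of which did not pass the test. Whether a match in the window goes with the chamber difference was not tested.

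Comparisons of the cohorts asked how far the repeat RNA, its withdrawal and MBNL expression moved these genes. Each cohort was set against the same +dox libraries of its tissue, and the comparisons are not independent of each other for that reason. Changes were small. In the ventricle of –dox mice none of the 83 genes was called, against 7.6% of all genes. The count was also 0 by DESeq2, and 30 genes had an unadjusted p below 0.05 by edgeR. No share of all genes at that unadjusted limit is given, here or for later comparisons. Such counts therefore do not show whether the group differed from other genes. Passing the test without the fold limit were 10 genes higher and 3 lower, against 9.64% and 11.3% of all genes. The median log2 difference was 0.04, beside 0.01 over all genes. By library size alone 3 genes passed as higher and 9 as lower, against 6.38% and 17% of all genes, so that the split between directions depended on the scaling. Leaving out 1 library left 2 to 8 higher and 0 to 4 lower, the fewest without +dox replicate 1.

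**Figure D3:**
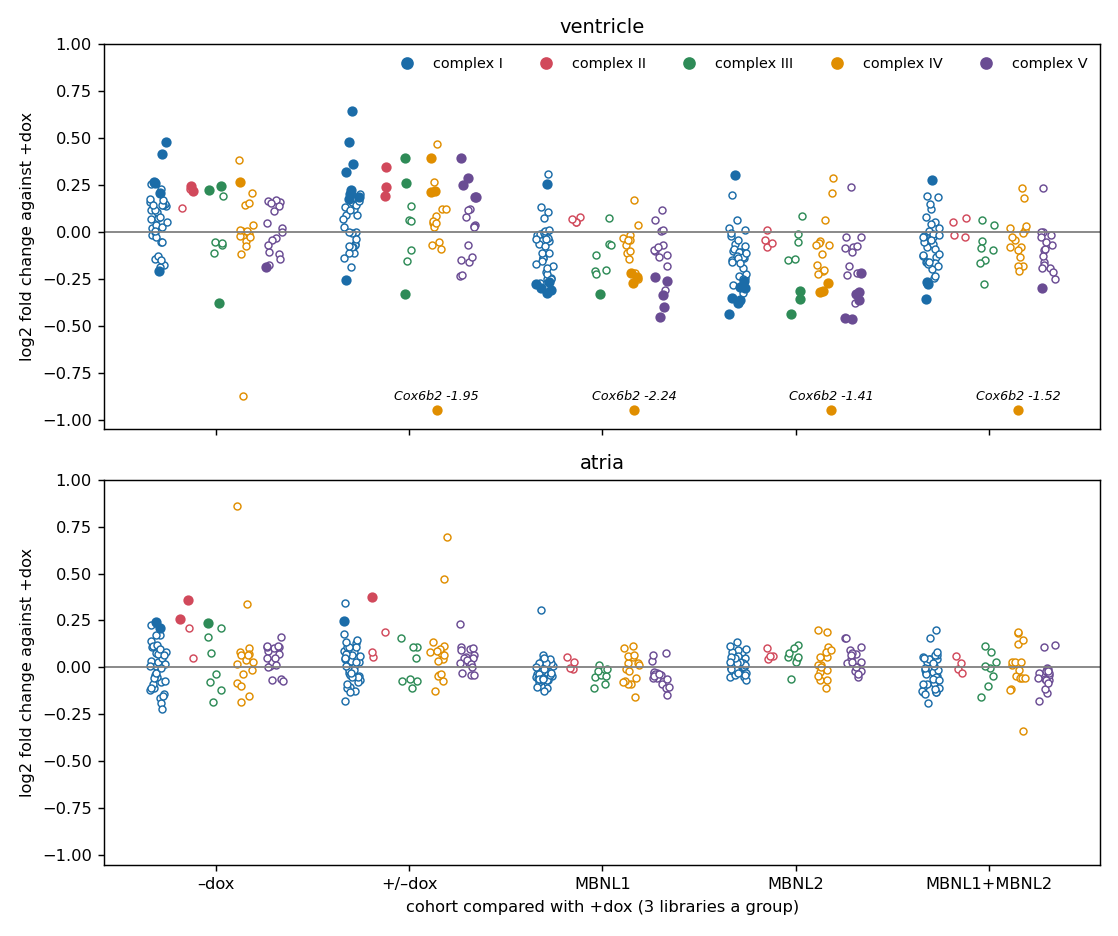
Log2 fold change of each gene against +dox mice by cohort and complex, ventricle above and atria below, from 3 libraries per group. Filled points passed at an adjusted p below 0.05, open points did not, and values beyond the axis are drawn at its edge and labelled. Most points lay within 0.5 of 0, and the vector-treated ventricles had more filled points below 0 than above.

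Ndufs7, the core complex I subunit that holds the last iron-sulfur cluster before ubiquinone (chr10:80249121-80256794 in mm10), rose most. Its ventricular libraries held 192, 208 and 172 CPM in +dox mice, 270, 233 and 294 in –dox mice and 301, 287 and 306 in +/–dox mice. All libraries without current dox were above all +dox libraries, with log2 differences of 0.48 ± 0.08 (edgeR, adjusted p = 1e-04) for –dox and 0.64 ± 0.08 (adjusted p = 1.8e-06) for +/–dox. Other complex I genes that rose in –dox mice were Ndufa4l2 (0.41 ± 0.14, from 7.52 to 8.97 CPM in +dox and 9.24 to 12.9 in –dox mice), Ndufa10 (0.27), Ndufb8 (0.26) and Ndufa9 (0.21).

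In complex II, Sdha had 1054, 1159 and 1051 CPM in the +dox ventricle, 1322, 1269 and 1275 in –dox mice and 1419, 1408 and 1317 in +/–dox mice. Both groups without current dox lay above the +dox libraries and overlapped each other, and the log2 differences from +dox were 0.24 ± 0.08 (edgeR, adjusted p = 0.029) and 0.34 ± 0.08 (adjusted p = 0.0024). Sdhc rose by 0.22 and 0.24, Sdhb had 0.13 ± 0.06 (edgeR, adjusted p = 0.17) and rose by 0.19 in +/–dox mice, and Sdhd had 0.23 ± 0.09 (adjusted p = 0.07) and 0.24 ± 0.09 (adjusted p = 0.057). The median over the 4 genes was 0.22 in –dox and 0.24 in +/–dox ventricles.

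Complex III moved both ways. Uqcrc1 had 968, 1057 and 919 CPM in +dox ventricles, 1197, 1102 and 1187 in –dox and 1342, 1289 and 1242 in +/–dox ventricles, with log2 differences of 0.24 ± 0.08 (edgeR, adjusted p = 0.032) and 0.40 ± 0.08 (adjusted p = 0.00074). Uqcrfs1, the Rieske iron-sulfur protein, rose by 0.22 and 0.26. Uqcr10, a small structural subunit, had 285, 273 and 229 CPM in +dox, 184, 218 and 205 in –dox and 201, 217 and 208 in +/–dox ventricles. It was lower in each library without dox, by −0.38 ± 0.10 (edgeR, adjusted p = 0.0063) and −0.33 ± 0.10 (adjusted p = 0.015).

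In complex IV, Cox7a1 rose in –dox ventricles, from 355, 373 and 438 CPM to 435, 485 and 479, which overlapped in 1 library each (0.26 ± 0.08, edgeR adjusted p = 0.014). The other differences named by size in this complex did not pass, with −0.87 ± 0.41 (edgeR, adjusted p = 0.13) for Cox6b2 and 0.38 ± 0.23 (adjusted p = 0.25) for Cox4i2. In complex V, Atp5h, the stalk subunit d, fell from 826, 860 and 829 CPM to 691, 775 and 742 (−0.19 ± 0.06, edgeR adjusted p = 0.026), and Atp5k, subunit e, was at −0.18 ± 0.10 (adjusted p = 0.21).

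In the ventricle of +/–dox mice 2 genes were called, Ndufs7 as higher and Cox6b2 as lower, against 6.6% of all genes. Passing the test were 21 higher and 3 lower, against 10.6% and 11.1% of all genes, and the median was 0.09, beside 0.00 over all genes. By library size alone 11 passed as higher and 9 as lower, against 6.74% and 16.6%, and without +dox replicate 1 the counts were 9 and 2. Those that rose included 8 genes of complex I, 3 of complex II, 2 of complex III, 3 of complex IV and 5 of complex V. Atp5d, the δ subunit, rose from 357, 431 and 337 to 493, 459 and 524 CPM (0.39 ± 0.08, edgeR adjusted p = 0.00091), Ndufv1, which binds NADH, by 0.36 ± 0.09, Atp5b by 0.29 ± 0.07 and Atp5a1 by 0.25 ± 0.07. Cox6a1 rose by 0.39 ± 0.11, with 32.8, 40.1 and 34.6 CPM in +dox and 48.4, 39.7 and 53.1 in +/–dox libraries, which overlapped. Cox6b2 had 0.898, 0.451 and 0.691 CPM in +dox and 0.243, 0.0756 and 0.195 in +/–dox ventricles (−1.95 ± 0.44, edgeR adjusted p = 0.0016), from 40 to 79 and 4 to 16 expected counts.

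Between +/–dox and –dox mice no respiratory chain gene was called in the ventricle (0.0312% of all genes) or in the atria (0.0104%). DESeq2 also called 0 in both, and 3 ventricular genes and 1 atrial gene had an unadjusted p below 0.05 by edgeR. Endothelial markers passed as higher in –dox and +/–dox ventricles (4 of 5 each), with summed TPM of 158 to 170 in +dox, 196 to 251 in –dox and 203 to 219 in +/–dox mice, as did 2 and 4 of 6 cardiomyocyte markers. Red cell markers summed to 393 to 1243 TPM in +dox and 1842 to 4147 in –dox ventricles, although 0 of 5 passed the edgeR test. The part of these cells in the changes was not tested.

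**Figure D4:**
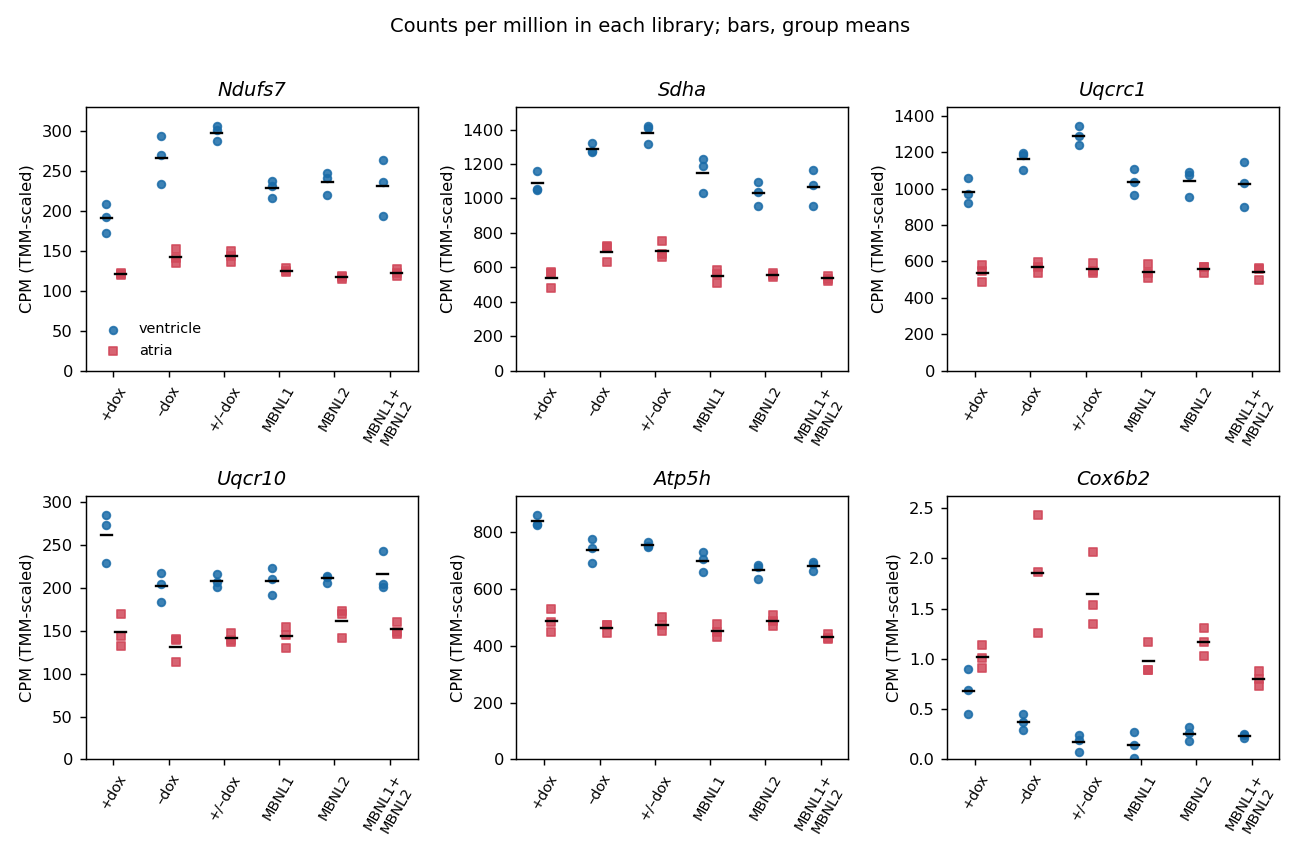
CPM in each library of 6 genes (Ndufs7, Sdha, Uqcrc1, Uqcr10, Atp5h and Cox6b2) by cohort, with circles for ventricle, squares for atria and bars for group means, on linear axes from 0. In the ventricle, Ndufs7, Sdha and Uqcrc1 were highest in +/–dox mice, and Uqcr10 and Atp5h were highest in +dox mice.

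In vector-treated ventricles the respiratory chain genes that passed were nearly all lower, by small amounts. In MBNL1+MBNL2 mice the number that passed as lower was near the share of all genes. With the length offsets given further below, the passing genes were not nearly all lower in any of these cohorts. In MBNL1 mice 1 gene was called, Cox6b2, against 2.66% of all genes, and 1 passed as higher and 15 as lower, against 4% and 4.96% of all genes. In MBNL2 mice Cox6b2 was again the single call, against 1.52%, and 1 passed as higher and 20 as lower, against 3.12% and 4.31%. In MBNL1+MBNL2 mice it was Cox6b2 once more, against 2.65%, with 1 higher and 5 lower, against 3.17% and 5.17%. The medians were −0.10, −0.14 and −0.07, beside −0.04, −0.00 and −0.01 over all genes. These counts rested on a spread estimated over all 12 groups. With only the libraries compared, 0 and 0 passed in MBNL1 mice, 0 and 13 in MBNL2 mice and 0 and 0 in MBNL1+MBNL2 mice, against 0.392 and 0.386%, 1.27 and 1.5%, and 0.646 and 0.761% of all genes. Without the MBNL1 ventricle library that stood apart, 0 genes passed as higher and 7 as lower in MBNL1 mice, and without MBNL2 replicate 1, 1 and 6 passed in MBNL2 mice.

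The single gene that passed as higher was Ndufs7 in each cohort, with 216, 237 and 230 CPM in MBNL1 (0.26 ± 0.08, edgeR adjusted p = 0.05, just under the limit), 220, 241 and 247 in MBNL2 (0.30 ± 0.08, adjusted p = 0.024) and 264, 236 and 193 in MBNL1+MBNL2 ventricles (0.28 ± 0.08, adjusted p = 0.037). The last group overlapped with the +dox libraries. Cox6b2 had 0.0145, 0.142 and 0.271 CPM in MBNL1 (−2.24 ± 0.44, edgeR adjusted p = 0.002), 0.182, 0.267 and 0.320 in MBNL2 (−1.41 ± 0.42, adjusted p = 0.035) and 0.257, 0.238 and 0.212 in MBNL1+MBNL2 mice (−1.52 ± 0.42, adjusted p = 0.022). All 9 libraries were below the +dox libraries, with 1 to 21 expected counts each. Leaving out any MBNL2 library or +dox replicate 1 or 3 ended the MBNL2 call, and leaving out any MBNL1+MBNL2 library or +dox replicate 1 ended the MBNL1+MBNL2 call.

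Genes besides Cox6b2 that were lower came from several complexes. Atp5k had 209, 210 and 221 CPM in +dox ventricles, 166, 169 and 151 with MBNL1 and 148, 159 and 158 with MBNL2, without overlap (−0.40 ± 0.10 and −0.46 ± 0.10, edgeR adjusted p = 0.0092 and 0.0041). Ndufa5, an accessory subunit of complex I, had 175, 192 and 205 CPM in +dox and 141, 143 and 139 in MBNL2 ventricles (−0.44 ± 0.08, edgeR adjusted p = 0.0019), and Uqcrb, a ubiquinone-binding subunit of complex III, had 321, 342 and 324 against 254, 248 and 226 (−0.44 ± 0.12, adjusted p = 0.021). Atp5h was lower in all 3 cohorts (−0.26, −0.33 and −0.30), with 826 to 860 CPM in +dox libraries and 636 to 729 in all vector-treated libraries. Ndufs6 (−0.33, −0.36 and −0.27) and Ndufa12 (−0.31, −0.38 and −0.36) also fell in all 3. Ventricles without current dox mostly lay below +dox for these genes too. Mean CPM in +dox, –dox and +/–dox ventricles was 151, 133 and 127 for Ndufa12 and 196, 177 and 178 for Ndufs6. It was 214, 189 and 181 for Atp5k, 838, 736 and 755 for Atp5h, and 329, 317 and 295 for Uqcrb. Ndufa5, at 190, 193 and 180, was not lower in –dox mice. No complex II gene passed in any of the 3 cohorts (0 of 4 by edgeR), where the medians of the complex were 0.06, −0.05 and 0.02. By complex, the lower genes in MBNL2 mice numbered 7 in complex I, 3 in complex III, 4 in complex IV and 6 in complex V.

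Transcript length moved with these results. The 17 respiratory chain genes whose longest coding transcript was at most 600 nucleotides had median log2 differences of −0.05 in –dox, −0.23 in MBNL1, −0.23 in MBNL2 and −0.15 in MBNL1+MBNL2 ventricles, and the 130 other tested genes of that length had −0.21, −0.23, −0.16 and −0.13. The 23 genes of 1 to 2 kb had 0.15 in –dox, −0.05 in MBNL1 and −0.08 in MBNL2 mice. With offsets that remove a trend with effective length from each library, 38 genes passed as higher and 0 as lower in –dox mice, 36 and 1 in +/–dox, 3 and 1 in MBNL1, 4 and 6 in MBNL2 and 4 and 3 in MBNL1+MBNL2 ventricles. The shares of all genes under these offsets were 10.7% higher and 10.2% lower in –dox, 11.1 and 11.3% in +/–dox, 4.23 and 4.95% in MBNL1, 3.45 and 3.71% in MBNL2 and 3.85 and 4.35% in MBNL1+MBNL2 ventricles. The longest transcript need not be the one expressed. Atp5g1 (4715 nucleotides) and Ndufb2 (4371) had relative effective lengths of 0.128 and 0.102, near the 0.127 of Atp5h (682 nucleotides). The source of the trend with length was not tested.

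**Figure D5:**
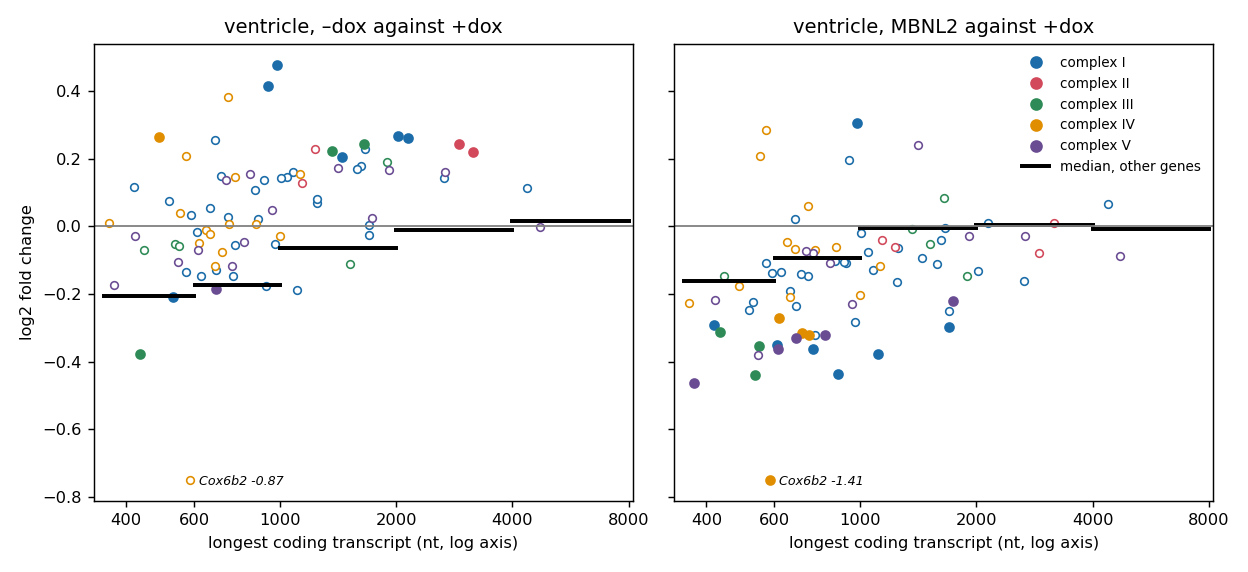
Log2 fold change against +dox mice of each respiratory chain gene over the length of its longest protein-coding transcript in nucleotides, for –dox and MBNL2 ventricles. Filled points passed at an adjusted p below 0.05, and black bars are medians of all other tested genes in each length bin. The plot holds the 80 genes with an annotated length, and Cox6b2 is drawn at the lower edge with its value. In the shortest bin the bars lay at −0.21 and −0.16 and the medians of the respiratory chain genes at −0.05 and −0.23.

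In the atria changes were fewer. In –dox mice 0 of the 83 genes were called by edgeR, against 5.23% of all genes, while DESeq2 called 1 and 12 genes had an unadjusted p below 0.05. Passing the test were 5 genes higher and 0 lower, against 7.3% and 8.62%. Among these were Sdha (0.36 ± 0.08), Sdhb (0.26 ± 0.06), Uqcrfs1 (0.24) and Ndufa10 (0.24). Sdha had 572, 565 and 478 CPM in +dox, 725, 717 and 628 in –dox and 678, 755 and 659 in +/–dox atria, so that each library without dox was above each +dox library (edgeR, adjusted p = 0.0021 and 0.0019). Sdhb had 258, 243 and 217 CPM in +dox and 298, 298 and 262 in –dox atria (edgeR, adjusted p = 0.0058), also without overlap.

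In +/–dox atria 0 genes were called by edgeR or DESeq2, against 3.99% of all genes, and 7 had an unadjusted p below 0.05 by edgeR. Sdha (0.37 ± 0.08) and Ndufs7 (0.25 ± 0.08, edgeR adjusted p = 0.048) passed as higher and 0 as lower, against 5.4% and 7.21%. Ndufs7 had 120, 122 and 120 CPM in +dox and 144, 150 and 136 in +/–dox atria, which did not overlap. Both edgeR and DESeq2 called 0 genes in the atria of MBNL1 mice (0.13% of all genes by edgeR), MBNL2 mice (0.0052%) and MBNL1+MBNL2 mice (0.26%), and 1, 0 and 3 had an unadjusted p below 0.05 by edgeR.

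Whether a cohort difference itself differed between ventricle and atria was tested as an interaction. From +dox to –dox no respiratory chain gene was called by edgeR, against 0.764% of all genes. DESeq2 called 1, Cox6b2, and 3 genes had an unadjusted p below 0.05. From +dox to +/–dox 1 gene was called, Cox6b2, against 0.489%, at −2.65 ± 0.58 (edgeR, adjusted p = 0.025). In this gene the ventricle was lower in +/–dox mice, as given above, whereas the atria held 1.01, 0.913 and 1.14 CPM in +dox and 1.54, 2.06 and 1.35 in +/–dox mice. For the vectors edgeR called 0, 0 and 0 genes, against 0.0312%, 0.0364% and 0.0728% of all genes for MBNL1, MBNL2 and MBNL1+MBNL2. DESeq2 called 1, 1 and 0, and 9, 34 and 5 genes had an unadjusted p below 0.05 by edgeR, again without a share of all genes to set beside them. Ndufs7 had interaction values of 0.24 ± 0.12 for –dox and 0.39 ± 0.12 for +/–dox (edgeR, adjusted p = 0.45 and 0.12), and in MBNL2 mice Atp5k had −0.54 ± 0.14 and Atp5h −0.33 ± 0.09 (both adjusted p = 0.16).

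Lists of genes that build or feed the chain were counted in the ventricle as well, beside 9.64% of all genes that passed as higher and 11.3% as lower in –dox mice. The counts for both lists of assembly factors and for regulators lay near these shares. Those for the 8 further chain genes and the 13 mitochondrial DNA genes rested on few genes. Without the fold limit, 2 of 15 complex I assembly factors passed as higher in –dox mice and 0 as lower, led by Ndufaf1 (0.71, and 0.67 in +/–dox mice). Of 32 assembly factors for the other complexes 5 were higher, among them the copper chaperone Sco2 (0.58), and 4 lower, among them Cox20, which helps mature subunit II (−0.43). Of 13 mitochondrial DNA genes 3 were higher, including mt-Nd1 (0.64), and of 13 tricarboxylic acid cycle genes 6, including Idh3b and Mdh2 (both 0.36). Among the 8 further chain genes 2 were higher, such as Etfb, an electron transfer flavoprotein subunit (0.39), and 1 lower, Atpif1, the inhibitor of the ATP synthase (−0.28). Of 16 regulators 1 was higher, Esrra, an orphan receptor that activates these genes (0.31), and 2 lower, among them Esrrb (−0.44). In the vector-treated ventricles Atpif1 was at −0.58 in MBNL1, −0.59 in MBNL2 and −0.70 in MBNL1+MBNL2 mice, and Cox20 at −0.64, −0.63 and −0.39, all past the test. In +/–dox ventricles the lists in the same order had 3 higher and 1 lower, 4 and 2, 3 and 0, 7 and 0, 2 and 1, and 1 and 2, beside 10.6% of all genes higher and 11.1% lower. In –dox atria they had 1 and 0, 1 and 5, 1 and 1, 3 and 1, 0 and 0, and 2 and 1, beside 7.3% and 8.62%.

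The library names fell into 2 number series, the first holding replicates 1 and 2 of all cohorts but MBNL1+MBNL2. Within the first series, 15 respiratory chain genes passed as higher and 7 as lower in –dox ventricles, 27 and 3 in +/–dox, 1 and 9 in MBNL1 and 0 and 18 in MBNL2 ventricles, and 52 genes were called between tissues in –dox and 53 in +dox mice. The shares of all genes in that fit were 9.05% higher and 10.2% lower in –dox, 9.59 and 9.85% in +/–dox, 3.53 and 4.68% in MBNL1 and 1.88 and 2.63% in MBNL2 ventricles, and 22.8 and 21.9% called between tissues. The second series held 1 library of each group, apart from the MBNL1+MBNL2 groups, and gave no test of its own. All MBNL1+MBNL2 libraries were in the second series. With the series as a covariate, whose effect rests on the other 5 cohorts of each tissue, 0 genes passed as higher and 6 as lower in MBNL1+MBNL2 ventricles, against 4.15% and 5.5% of all genes. The study's sample list gives animals of both sexes for every cohort but MBNL1+MBNL2, whose animals were all male. Each of the other 5 cohorts is listed with 2 males and 1 female, the same split as between the series. The series covariate may for that reason also carry sex. The labels do not tie sex to libraries, sex was no term in any model, and its part in these comparisons was not tested.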

How the data were processed

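Poly(A)-selected, stranded RNA-seq libraries were prepared from the left ventricle and atria of 6 cohorts (3 mice per tissue and cohort, 36 libraries). According to the study's methods and the submitters' processing notes, the authors used STAR 2.7.10b for alignment (build mm10) and RSEM 1.3.1 for quantification per gene. The deposited expected counts, 1 value per gene symbol and library, carry no normalization. The deposited TPM values were scaled by the authors to an equal total in each library. The strand setting of the counting is not given in the sources used here, so that reads of overlapping genes may be mixed.

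Expected counts were rounded, filtered with filterByExpr (19231 genes kept) and TMM-normalized, and 1 model over the 12 groups was fitted with edgeR 4.0.16 in R 4.3.3 (quasi-likelihood test, Benjamini-Hochberg adjustment over all genes tested). CPM values are on TMM-scaled library sizes. The depth of 55.03 to 97.09 M expected counts per library keeps counting noise low for all but Cox6b2, Cox4i2 and Ndufa4l2. It does not lessen the spread between animals or the uncertainty from overlapping or copied genes. Promoters were RefSeq's (GRCm38.p6), and transcript lengths and gene positions were those of GENCODE M21. The scripts were tested on simulated data. Alternatives were another normalization, filter, fold limit or tool (DESeq2 1.42.0, limma 3.58.1 on log2(TPM + 1)), a replicate block, the library series, the samples in the fit and each library left out. Offsets by length, the library series taken alone and the interactions for +/–dox and the vectors were added after the data were seen.

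The genes and lists were chosen with earlier results of these data known. Genes named were those called (at most 10 per comparison), the 2 largest changes per complex in –dox against +dox ventricles, the 5 highest in TPM, isoform sets, genes next to the TPM limit and 2 per pathway list. Other genes named were chosen after their values were seen. Same-numbered ventricle and atria libraries deviated together in +dox (correlations of 0.152 to 0.257) and –dox mice (0.123 to 0.243), and numbers did not pair the cohorts within a tissue. No values of single animals beyond these libraries were analysed here. The values of 1 gene of the group are not reported here, although it is included in the counts.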

Additional observations from a re-analysis of the deposited data

Results flagged for a closer look

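Cox6b2 differed between tissues in its change from +dox to +/–dox mice. The ventricular change less the atrial change was −2.65 on the log2 scale (SE 0.58, edgeR adjusted p = 0.025), the single such difference called among the 83 genes in this comparison. Expected counts were 79, 40 and 45 in +dox and 16, 4 and 12 in +/–dox ventricles, and 94, 85 and 82 in +dox and 90, 154 and 105 in +/–dox atria. The gene was not called within the first library series or when any 1 of ventricle +dox replicate 1, ventricle +/–dox replicate 2 or 3, atria +dox replicate 1 or 2, or atria +/–dox replicate 2 was left out.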

How the results depend on the processing

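Between tissues, the number of called genes was 64 in –dox and 62 in +dox mice, and it was 21 and 24 by library size alone, 37 and 28 with length offsets and 6 and 7 by limma on log2(TPM + 1). By limma 29.9 and 29.7% of all genes were called. Unless printed above, shares of all genes under the settings of this section are not given. Its counts show only how the number for the group moved with the processing. With no fold limit, the cohort comparisons with +dox had 13 (–dox), 24 (+/–dox), 16 (MBNL1), 21 (MBNL2) and 6 (MBNL1+MBNL2) genes in the ventricle and 5 (–dox) and 2 (+/–dox) in the atria, in place of 0, 2, 1, 1, 1, 0 and 0. For –dox ventricles 1 gene was called without the MBNL1 ventricle library that stood apart, by limma or with length offsets, and for –dox atria 1 without that library, with only the libraries compared, by limma or by DESeq2. For +/–dox ventricles 1 gene was called by library size alone or within the first library series, and 1 to 2 when a library was left out (1 without +dox replicate 3). In MBNL2 ventricles 0 were called with only the libraries compared, within the first series or with length offsets, and 0 to 1 with a library left out. In MBNL1 ventricles 0 were called with only the libraries compared. In MBNL1+MBNL2 ventricles 0 were called with only the libraries compared, and 0 to 1 with a library left out. The difference between tissues in the change to –dox gave 1 gene without the library that stood apart, by limma or by DESeq2. For +/–dox it gave 0 within the first series and 0 to 1 with a library left out, for MBNL1 1 by DESeq2 and 0 to 1 with a library left out (1 without ventricle MBNL1 replicate 3), and for MBNL2 1 by DESeq2 or with the series as a covariate. The cause was not tested.

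Without the fold limit, a library left out gave 7 to 18 lower genes in MBNL1, 6 to 15 in MBNL2 and 2 to 10 in MBNL1+MBNL2 ventricles. In the atria it gave 2 to 8 higher genes in –dox mice (2 without +dox replicate 3 or –dox replicate 1, 3 without +dox or –dox replicate 2, and 8 without –dox replicate 3) and 1 to 3 in +/–dox mice. A replicate block within tissue gave 16 higher and 4 lower in –dox, 27 and 5 in +/–dox, 0 and 23 in MBNL1, 1 and 31 in MBNL2 and 1 and 8 in MBNL1+MBNL2 ventricles, and the replicate numbers did not pair the cohorts within a tissue. A replicate block within cohort left 64 and 62 genes between tissues.

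The sign of the ventricle over atria difference turned by library size alone for Atp5b (−0.0191 in –dox, −0.0339 in +dox mice), Cox7a2l (−0.14 and −0.20) and, in –dox mice, Atp5g2 (−0.026). By limma on log2(TPM + 1) it turned for Atp5b (−0.25 and −0.31), Atp5g2 (−0.26 and −0.19), Cox7a2 (−0.23 and −0.16) and Cox7a2l (−0.37 and −0.47). These were the 13 reversals among 6934 values of the 34 genes named by rule, of which 6650 kept their direction and side of the limit. Over all 83 genes, the number below 0 was 3 in each cohort, 7 in each by library size alone, and 17 in –dox and 19 in +dox mice by limma on log2(TPM + 1).

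Of the pathway lists in –dox ventricles without the fold limit, complex I assembly factors went from 2 to 4 (library size) and 1 to 2 (a library left out), the other assembly factors from 9 to 14 (series as covariate), 2 (only the libraries compared) and 2 to 10 (left out), the further chain genes from 3 to 5 (replicate block, series as covariate), 6 (first series) and 1 to 3 (left out), mitochondrial DNA genes from 3 to 5 (length) and 1 to 3 (left out), regulators from 3 to 1 (only the libraries compared) and 1 to 3 (left out), and cycle genes from 6 to 10 (first series) and 3 to 7 (left out). Between tissues in –dox mice, library size gave 0, 5 and 4 for the first 3 lists, and limma 0, 0, 3, 4, 3 and 3 for the 6 lists in this order. In +dox mice complex I assembly factors went from 6 to 2 (library size, first series), 3 (series as covariate), 0 (limma) and 3 to 9 (left out), the other assembly factors to 5 and 1, further chain genes to 1 (limma), mitochondrial DNA genes to 7 (library size, length) and 1 (limma), and cycle genes to 4 and 3.

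Each group held 3 animals, Cox6b2 rested on few counts, and the scaling moved the tissue counts as given above.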
